A study of Mus musculus with 2 samples.

Results

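The proteasome genes of this series are 43 of the 27975 genes on the array and were read by 69 of its 41174 probes. They are the genes whose array name begins with Psma, Psmb, Psmc, Psmd, Psme or Psmf followed by a digit, with Psmb8 and Psmb9 left out. The rule uses gene names and no measured value, although it was set with earlier results of these data known. Tregs (regulatory T cells, which carry the transcription factor Foxp3 and restrain immune responses) without Bcl11b, a transcription factor that T cells need to develop, were set against wild-type Tregs on the C57BL\6 background. Each of 2 Cre systems was measured on 1 two-colour Agilent array, wild type in Cy3 and deficient in Cy5, with no dye swap. On the Cd4Cre array the deficient cells were Foxp3-GFP Tregs from Bcl11bF/F/Cd4Cre/Foxp3-GFP+ mice, in which Cre acts in all developing T cells once the Cd4 promoter is on, and the wild-type cells were Foxp3-GFP Tregs. On the Foxp3Cre array the deficient Tregs came from Bcl11bF/F/Foxp3Cre mice, in which Cre acts only in cells that already express Foxp3, and were set against wild-type Tregs. Each wild-type pool came from 3 mice. The labels do not give the number of mice behind the deficient pools, the age of the mice, or whether the wild-type mice carried a Cre.

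The proteasome is the barrel-shaped protease that degrades proteins tagged with ubiquitin. Its 20S core stacks rings of alpha subunits (Psma genes), which gate the entrance, around rings of beta subunits (Psmb genes), of which a few cut peptide bonds. The 19S particle caps the core: its ATPases (Psmc genes) unfold the substrate, and its other subunits (Psmd genes) bind ubiquitin chains and remove them. Activators (Psme genes) open the core without the 19S cap, and Psmf1 inhibits it. Immune cells exchange the cutting subunits for inducible ones under interferon, and the peptides they release feed MHC class I presentation. Activated T cells are known to need more proteasome activity.

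The pools stood apart from one another before any proteasome gene was read. Unless called signals, values below are ratios on the log2 scale with the deficient pool over its wild-type pool, so that 1 is a doubling and values under 0 belong to genes lower without Bcl11b. Where values come in pairs, the Cd4Cre array comes first. Bcl11b itself read -2.46 and -1.82. Of the 6 Treg marker genes, all 6 were below 0 on the Cd4Cre array (median -3.17, Foxp3 at -3.57), against 3 of 6 on the Foxp3Cre array (median -0.02, Foxp3 at -0.20). The deficient Cd4Cre pool read higher for myeloid markers (7 of 9 above 0, median 3.58), NK markers (6 of 6, median 1.93), CD8 markers (2 of 2, median 1.88), B cell markers (4 of 4 above background, median 1.06, with the defining gene Pax5 not well above background in either pool) and the 12 proliferation markers (12 of 12, median 1.84). On the Foxp3Cre array the corresponding medians were 0.94, 0.63, 0.05, -0.03 and 0.54. Under the median centring described below these became 1.37, 0.77, 0.78, 0.45 and 1.23, and the Treg median there became 0.49. The wild-type Foxp3Cre pool held salivary gland transcripts, with 6 of 6 markers below 0 and a median of -3.36. The wild-type pools also differed in the other markers. Summed over the markers detected on each array, the wild-type log2 Treg signal was 17.82 (Cd4Cre) and 16.38 (Foxp3Cre). Myeloid markers summed to 15.40 and 17.16, NK to 13.14 and 14.34, CD8 to 14.66 and 15.77, and B cell to 14.46 and 16.09. The arrays therefore set the deficient pools against unlike wild-type pools. In pooled cells, a change in the mix of cells and a change within a cell cannot be told apart. The part of these marker differences in the proteasome ratios below was not tested.

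Of the 43 genes, 42 were detected on each array, which means that the gene's brightest probe was flagged well above background in at least 1 channel. Both channels were above background for 41 of them. Psmb11, the catalytic subunit of the thymic proteasome, was not well above background in any of the 4 pools. In Psma8, the alpha subunit of germ cell proteasomes, only the deficient channel passed. Proteasome probes were bright, with a median log2 signal of 14.50 against 11.19 over the 14374 genes detected on both arrays. There was 1 array per Cre system, so no ratio on a single array has a test, and the scanner software's error of about 0.2 (log2) covers the spots of that array only.

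On the Cd4Cre array the proteasome genes as a group lay above 0. The median of the 42 detected members was 0.24 against -0.05 over all 15872 detected genes, and 30 of 42 members (71.4%) were above 0, against 47.2% of all genes. At a fold of at least 1.5, 14 members were higher, beside 22.1% of all genes, and 2 were lower, beside 22.4%. At a fold of at least 2, 4 members were higher (Psmc3ip, Psmb2, Psma5 and Psmb3), beside 11.4% of all genes, and none was lower, beside 10.6%. After loess the shift left 26 of the 42 members within 1.5-fold, beside 8817 of all 15872 genes, and it was larger under the median centring described below.

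On the Foxp3Cre array the shift was smaller after loess. The median was 0.10 against -0.08 over 15190 detected genes, and 26 of 42 members (61.9%) were above 0, against 45.4% of all genes. At 1.5-fold, 5 members were higher, beside 14.1% of all genes, and 2 were lower, beside 25.8%. At 2-fold no member was higher, beside 2.94% of all genes, and 1 was lower (Psmd3), beside 11.5%. The highest members were Psmc3ip, Psmd10, Psmb2, Psma3 and Psma8, and the lowest were Psmd3, Psmd2, Psme4, Psmd11 and Psme3.

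The level of the whole group rests on how the dyes were balanced. Without the intensity-dependent (loess) normalization, and with each array centred on its median instead, the members' median became 0.91 (Cd4Cre) and 0.93 (Foxp3Cre), while the median of all genes moved by 0.12 and 0.25. Under that scaling 31 members were at least 1.5-fold higher on each array, beside 29.5% and 31.0% of all genes. In all, 10 members of the Cd4Cre array and 11 of the Foxp3Cre array turned from below to above 0. No member turned the other way. At 2-fold under that scaling 16 and 18 members were higher, beside 18.0% and 13.4% of all genes, and none was lower, beside 8.31% and 6.73%.

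**Figure D1:**
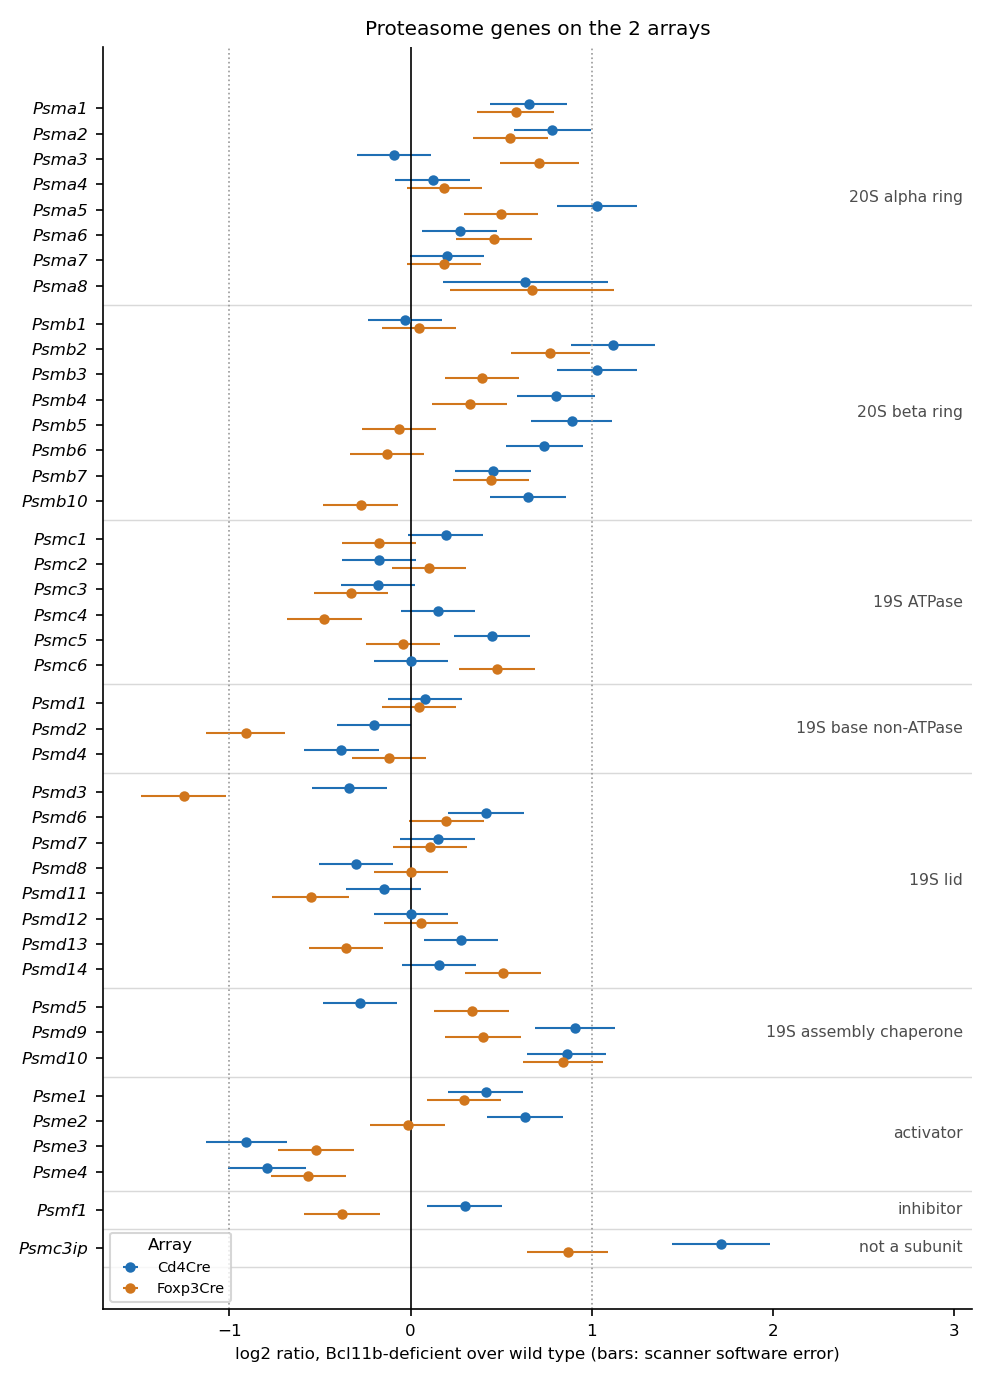
Log2 ratio of deficient over wild type for the 42 detected proteasome genes, grouped by role, with the Cd4Cre array in blue and the Foxp3Cre array in orange; bars are the scanner software's error for that probe on 1 array, and dotted lines mark a 2-fold ratio. The 20S genes sit mostly to the right of 0 and the 19S genes around it, while under median centring without loess every 20S point and all but 3 of the 19S points on the Foxp3Cre array, and every 19S point on the Cd4Cre array, lie above 0.

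The 20S core stood above the 19S particle on both arrays. The 16 detected core genes had medians of 0.65 and 0.42 on the Cd4Cre and Foxp3Cre arrays, with 14 and 13 of 16 above 0. The 17 subunits of the 19S base and lid had medians of 0.00 and -0.04, with 10 and 8 of 17 above 0. The shares above 0 were 87.5% and 81.2% in the core and 58.8% and 47.1% in the 19S particle, beside 47.2% and 45.4% of all genes. The naming rule leaves out the 19S subunit Sem1, given below. After loess, 10 (Cd4Cre) and 3 (Foxp3Cre) of the core genes were at least 1.5-fold higher, beside 22.1% and 14.1% of all genes. In the 19S particle 0 of 17 were, on either array, as read by their brightest probes. Some other probes of 19S genes did pass 1.5-fold, as given below. Under median centring the brightest probes gave 14 and 16 of the core genes and 12 and 9 of the 19S genes, beside 29.5% and 31.0% of all genes. The core counts include Psma8, which was detected through its deficient channel alone, and without it 9 and 2 of 15 core genes were at least 1.5-fold higher after loess, with medians of 0.65 and 0.40. The median of the core exceeded that of the 19S particle by 0.65 and 0.46, and by 0.34 to 0.81 on the Cd4Cre array and 0.24 to 0.61 on the Foxp3Cre array over all settings tried. Core probes were also brighter (median log2 signal 15.34 against 14.38), and the part of that in the gap was not tested.

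The alpha ring forms the gate of the core, and most of its genes read higher in the deficient pool on both arrays. Of its 8 detected genes, 7 were above 0 on the Cd4Cre array (median 0.45), beside 47.2% of all genes. On the Foxp3Cre array 8 were (median 0.53), beside 45.4%. These counts and medians include Psma8, which was detected through its deficient channel alone, so its place above 0 followed from that filter. Psma5 gave log2 signals of 15.72 in the wild-type and 16.75 in the deficient pool of the Cd4Cre array, and 16.04 and 16.54 on the Foxp3Cre array. Both deficient pools were above both wild-type pools, and the ratios were 1.03 (error 0.22) and 0.50 (error 0.21). Psma2 read 0.78 and 0.55 and Psma1 read 0.65 and 0.58, which is a difference of 0.23 and of 0.07 between the arrays.

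Psma3 was the exception in the ring. Its signals were 13.79 and 13.70 in the wild-type and deficient Cd4Cre pools and 12.89 and 13.60 in the Foxp3Cre pools. The wild-type Foxp3Cre pool was the low one, and the ratios were -0.09 (error 0.20) and 0.71 (error 0.22). Psma4, Psma6 and Psma7 lay between 0.12 and 0.27 on the Cd4Cre array and between 0.19 and 0.46 on the Foxp3Cre array. For Psma8 the deficient pools were at least 1.55-fold and 1.59-fold higher, as bounds, since its wild-type signal was not well above background on either array.

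The beta ring carried the highest subunit ratio of the Cd4Cre array and the widest spread between the arrays. Its 8 detected genes had a median of 0.77 on the Cd4Cre array, where 6 were at least 1.5-fold up, beside 22.1% of all genes. On the Foxp3Cre array their median was 0.19, and 1 was at least 1.5-fold up, beside 14.1%. Psmb2, a structural subunit, gave signals of 12.26 and 13.38 in the wild-type and deficient Cd4Cre pools and 12.36 and 13.13 in the Foxp3Cre pools. Both deficient pools exceeded both wild-type pools, with ratios of 1.12 (error 0.23) and 0.77 (error 0.22). Its probe crosses an exon junction on chromosome 4 (mm9, plus strand, chr4:126361456-126364299), so it reads spliced RNA, and it is printed here because Psmb2 was the subunit furthest above 0 on the Cd4Cre array. The junction-crossing probe of Psmb7 (mm9, minus strand, chr2:38468966-38489385), the catalytic subunit whose ratio was most alike on the arrays, follows it.
Psmb2: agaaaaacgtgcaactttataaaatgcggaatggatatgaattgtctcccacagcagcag
Psmb7: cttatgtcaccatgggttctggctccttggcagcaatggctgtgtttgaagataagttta

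Among the detected catalytic subunits, Psmb5, Psmb6 and Psmb10 split between the arrays, and Psmb7 did not. A Cd4Cre ratio at least 1.5-fold above the Foxp3Cre ratio was found in 26.9% of all genes detected on both arrays. Psmb5, which cuts after hydrophobic residues, gave signals of 14.73 and 15.62 in the wild-type and deficient Cd4Cre pools and 14.92 and 14.86 in the Foxp3Cre pools. The deficient Cd4Cre pool alone was high, with ratios of 0.89 (error 0.22) and -0.06 (error 0.20). Psmb6, which cuts after acidic residues, gave 15.53 and 16.27, then 15.66 and 15.53. Its ratios were 0.74 (error 0.21) and -0.13 (error 0.21), again with the deficient Cd4Cre pool above the other three.

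Psmb7, which cuts after basic residues, did not show this split. Its signals were 13.34 and 13.80 on the Cd4Cre array and 13.39 and 13.83 on the Foxp3Cre array, with ratios of 0.46 (error 0.21) and 0.44 (error 0.21). Psmb10, the inducible subunit that takes the place of Psmb7 in immunoproteasomes, did, with signals of 16.09 and 16.74 and then 16.37 and 16.09. Its ratios of 0.65 (error 0.21) and -0.28 (error 0.21) were beyond the scanner error in opposite directions. With the trend of the ratios over probe GC content removed after loess, its Foxp3Cre ratio was -0.09, within that error.

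The differences between the arrays for these genes moved little with the processing. Each of these genes has 1 probe, so settings that change only the choice or filtering of probes left its values unchanged, and part of this stability was fixed in advance. The Cd4Cre ratio exceeded the Foxp3Cre ratio by 0.95 for Psmb5, 0.92 for Psmb10 and 0.87 for Psmb6, and by 0.01 for Psmb7. Over all settings tried the differences ranged from 0.92 to 0.98 for Psmb5, from 0.89 to 0.99 for Psmb10, from 0.84 to 0.92 for Psmb6 and from -0.10 to 0.03 for Psmb7. The sign on the Foxp3Cre array did not hold in the same way: under median centring Psmb5, Psmb6 and Psmb10 read 0.84, 0.95 and 0.94 there. With loess kept and the GC trend removed they read 0.155, 0.09 and -0.09.

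**Figure D2:**
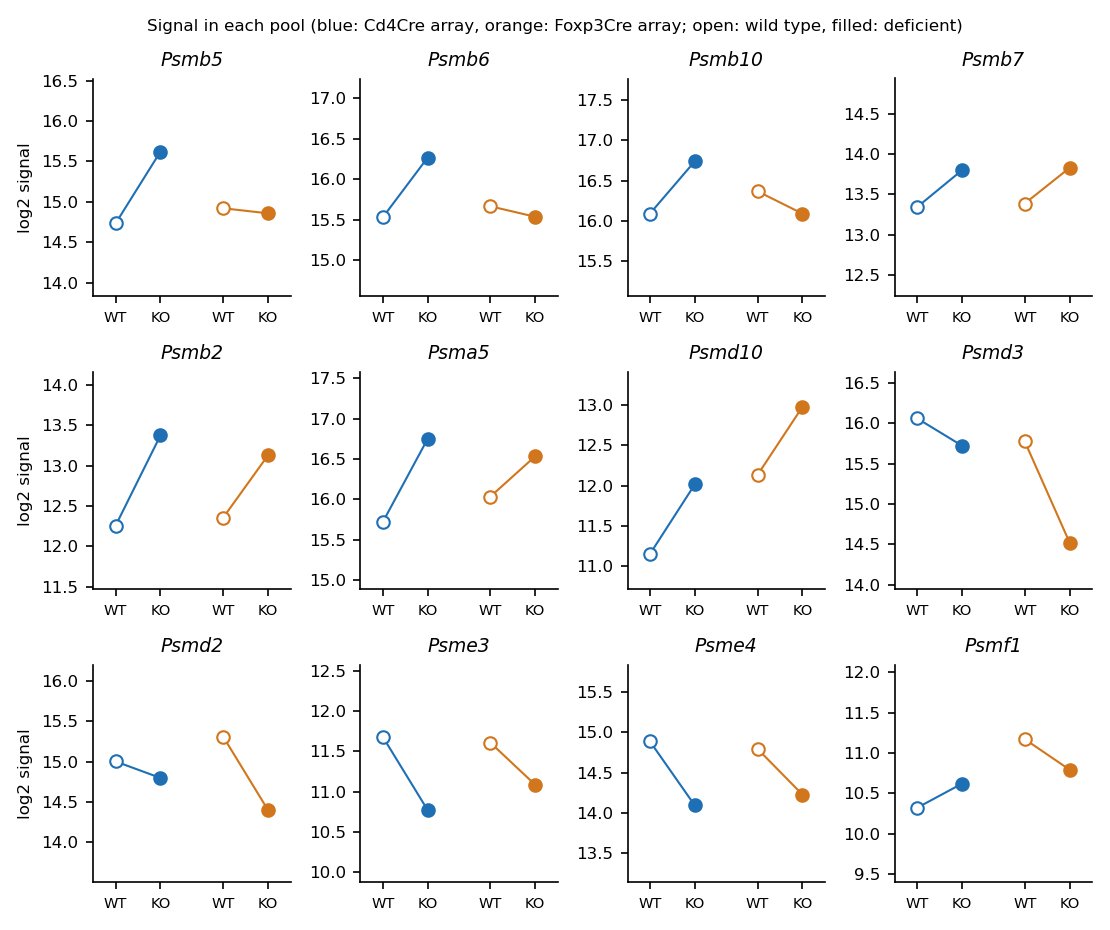
Log2 signal of 12 proteasome genes in the wild-type (WT, open) and deficient (KO, filled) pool of the Cd4Cre array (blue) and the Foxp3Cre array (orange), each panel spanning the same number of log2 units around its own centre and each point 1 pool. Psmb5, Psmb6 and Psmb10 climb from WT to KO in blue and not in orange. Psmb7, Psmb2, Psma5 and Psmd10 climb in both, and Psmd3 and Psmd2 drop most in orange. Under median centring the orange lines of Psmb5, Psmb6 and Psmb10 climb too. With the GC trend removed after loess, the Foxp3Cre ratios of Psmb5 and Psmb6 are also above 0.

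Of the remaining beta subunits, Psmb3 read 1.03 (error 0.22) and 0.40 (error 0.21) from its brightest probe. A second probe of Psmb3, also above background, read -0.18 and -0.25, so the direction of Psmb3 depends on the probe. Psmb4 read 0.80 and 0.33, and Psmb1 read -0.03 and 0.05, within the scanner error on both arrays.

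Promoters of the proteasome genes were examined for the motifs of regulators known to act on proteasome genes. The antioxidant response element (TGACNNNGC) is bound by Nfe2l1 and Nfe2l2, the CCAAT box (CCAAT) by nuclear factor Y, and the interferon-stimulated response element core (GAAA, any 2 bases, GAAA) by interferon regulatory factors. Promoters (from 250 bases before to 50 after the annotated start, from RefSeq on GRCm38.p6) were matched by symbol for 36 of the 43 genes, as 39 promoters, and searched on both strands for each motif on its own. The genes with no match were Psma8, Psmb1, Psmb2, Psmb7, Psmc3, Psmd3 and Psmd7. The antioxidant response element was found in 6 of 39 promoters (15.4%, against 12.4% of all 32851 promoters), those of Psmb5, Psmb6, Psmc6, Psmd12, Psmd9 and Psme4. The CCAAT box was found in 14 (35.9%, against 37.4%) and the interferon-stimulated core in 4 (10.3%, against 3.44%), those of Psmb3, Psmd4, Psmd9 and Psme1. A match is a string of letters and not a site shown to be used.

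The promoters of the 3 subunits that were high in the deficient Cd4Cre pool alone are printed with that of Psme1, in which the interferon-stimulated core lies 10 bases past the start on the reverse strand. Capitals mark the antioxidant response element, which starts 47 bases before the start of Psmb5 (chr14:54617946-54618245, minus strand) and 9 bases before that of Psmb6 (chr11:70525107-70525406, plus strand), and the interferon-stimulated core of Psme1 (chr14:55578244-55578543, plus strand). Psmb10 (chr8:105938343-105938642, minus strand) held none of the motifs in this window.
Psmb5: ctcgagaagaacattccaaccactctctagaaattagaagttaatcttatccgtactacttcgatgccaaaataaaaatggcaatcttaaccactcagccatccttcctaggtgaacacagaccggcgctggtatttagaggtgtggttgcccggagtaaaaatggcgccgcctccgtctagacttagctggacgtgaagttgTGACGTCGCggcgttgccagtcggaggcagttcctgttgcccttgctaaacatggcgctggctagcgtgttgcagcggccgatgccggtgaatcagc
Psmb6: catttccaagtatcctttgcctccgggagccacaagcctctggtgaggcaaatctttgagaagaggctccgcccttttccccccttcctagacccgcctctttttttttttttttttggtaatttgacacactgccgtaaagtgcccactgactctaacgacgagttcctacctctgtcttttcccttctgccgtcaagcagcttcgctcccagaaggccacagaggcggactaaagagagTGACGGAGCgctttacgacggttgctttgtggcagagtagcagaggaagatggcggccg
Psmb10: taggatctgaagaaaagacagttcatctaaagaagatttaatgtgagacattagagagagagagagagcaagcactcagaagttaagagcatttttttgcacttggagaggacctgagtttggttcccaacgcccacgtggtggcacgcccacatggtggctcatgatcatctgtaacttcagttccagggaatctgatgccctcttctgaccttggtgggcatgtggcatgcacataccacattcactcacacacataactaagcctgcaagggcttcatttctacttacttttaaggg
Psme1: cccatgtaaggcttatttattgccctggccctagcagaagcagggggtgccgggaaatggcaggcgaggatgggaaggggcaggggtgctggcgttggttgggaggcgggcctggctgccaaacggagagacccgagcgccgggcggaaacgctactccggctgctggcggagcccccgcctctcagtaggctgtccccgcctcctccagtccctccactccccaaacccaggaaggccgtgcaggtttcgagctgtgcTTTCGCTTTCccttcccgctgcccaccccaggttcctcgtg

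In the 19S particle, the 6 ATPases that unfold substrates stayed within 1.5-fold on both arrays after loess, as read by their brightest probes. Their medians were 0.08 on the Cd4Cre array (from -0.18 to 0.45) and -0.11 on the Foxp3Cre array (from -0.48 to 0.48). Psmc5 was highest on the Cd4Cre array at 0.45 (error 0.21) and read -0.04 on the Foxp3Cre array, while Psmc6 was highest on the Foxp3Cre array at 0.48 (error 0.21) and read 0.00 on the Cd4Cre array. Psmc4 was the lowest ATPase on the Foxp3Cre array at -0.48 (error 0.21), with 0.15 on the Cd4Cre array. The second probes of Psmc6 (0.60 and 0.77) and Psmc4 (0.68 and -0.19) read higher than the brightest ones on both arrays. Under median centring all 6 ATPases lay above 0 on both arrays.

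Psmd3 and Psmd2 had the lowest ratios of the 19S particle on the Foxp3Cre array. Psmd3, a lid scaffold, gave signals of 16.06 and 15.72 in the wild-type and deficient Cd4Cre pools and 15.77 and 14.52 in the Foxp3Cre pools. The deficient Foxp3Cre pool was the low one, with ratios of -0.34 (error 0.21) and -1.25 (error 0.23), a 2.38-fold reduction on the Foxp3Cre array. Under median centring these became 0.71 and -0.28, so the direction on the Cd4Cre array turned and the difference between the arrays stayed at 0.99.

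Psmd2, the large scaffold of the base on which ubiquitin receptors dock, gave 15.00 and 14.80, then 15.31 and 14.40. Its ratios were -0.20 (error 0.20) and -0.91 (error 0.22), and its second probe read -0.35 and -1.10. Both probes of Psmd2 therefore placed the deficient Foxp3Cre pool lowest, although the brightest probe read -0.02 on that array under median centring. The second probe crosses exon junctions on chromosome 16 (mm9, plus strand, chr16:20660170-20660469). It is printed as a second reading of this gene, from the same pools on the same arrays.
Psmd2: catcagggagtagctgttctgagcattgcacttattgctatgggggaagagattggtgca

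Psmd4, a ubiquitin receptor, read -0.38 (error 0.21) and -0.12 (error 0.20) from its brightest probe, and 0.26 and 0.70 from the same probe under median centring, so that its sign turned. Its second probe read -0.67 on the Cd4Cre array. On the Foxp3Cre array that probe's deficient channel was not well above background, and it gave a bound of at least 2.52-fold lower. Psmd11, which ties lid to base, read -0.15 and -0.55, and its other probe above background, which the array's own coordinates place on the opposite strand, read 0.69 and 0.10. Psmd8 read -0.30 (error 0.21) and 0.00.

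Among the other 19S subunits, Psmd14, the deubiquitinase that removes chains as the substrate enters, read 0.16 (error 0.21) and 0.51 (error 0.21). Psmd6 read 0.41 and 0.20. Psmd13 gave signals of 11.57 and 11.85 on the Cd4Cre array and 11.86 and 11.50 on the Foxp3Cre array, with ratios of 0.28 (error 0.21) and -0.36 (error 0.21). Psmd1, Psmd7 and Psmd12 lay between 0.00 and 0.15 on both arrays from their brightest probes.

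Psmd7 and Psmd12 also showed how far probes of a gene can part. The other probes of Psmd7 read 1.45 and 0.21 on the Cd4Cre array and 0.00 and -0.39 on the Foxp3Cre array. The other probes of Psmd12 read 0.76 and 0.90, then 0.78 and 0.41. Among the 17 genes with more than 1 probe above background, the range between probes had medians of 0.39 and 0.30. It reached 1 or more for 3 genes on the Cd4Cre array (Psme4, Psmd7 and Psmb3) and for 2 on the Foxp3Cre array (Psmd4 and Psmc2), both of which rest on a second probe whose deficient channel was not well above background. For Psmc2 the brightest probe read 0.10 (error 0.20) on the Foxp3Cre array, where the other gave a bound of at least 2.08-fold lower. On the Cd4Cre array the same probes read -0.17 and -0.07.

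**Figure D3:**
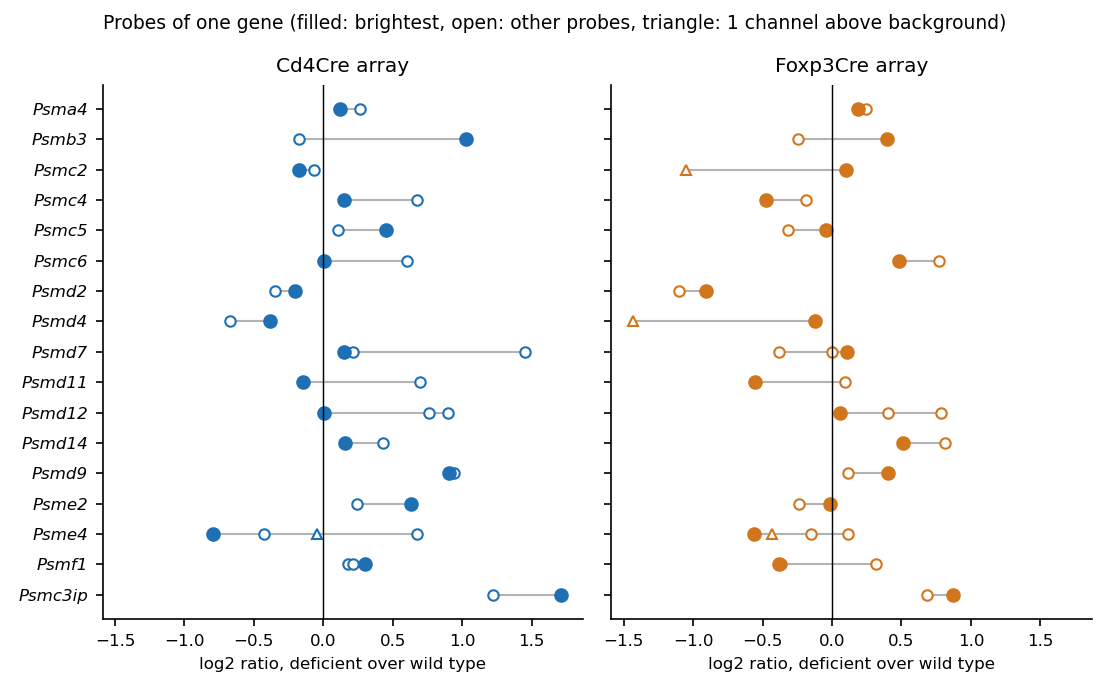
Log2 ratio of deficient over wild type for each detected probe of the 17 proteasome genes with more than 1 such probe, with the brightest probe filled, the others open, and triangles for probes with only 1 channel above background, whose plotted ratio is no measured size, on the Cd4Cre array (left) and the Foxp3Cre array (right). The lines join probes of a gene; Psme4, Psmd7 and Psmb3 on the left and Psmd4 and Psmc2 on the right span 1 or more, the last pair through such triangles.

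The assembly chaperones, which hold ATPases while the base is built and leave the finished particle, included some of the highest ratios. Psmd10 gave signals of 11.15 and 12.02 in the wild-type and deficient Cd4Cre pools and 12.14 and 12.98 in the Foxp3Cre pools. The deficient pool was the higher one on each array by nearly the same amount, with ratios of 0.86 (error 0.22) and 0.84 (error 0.22). Psmd9 read 0.91 (error 0.22) and 0.40 (error 0.21), and its second probe read 0.94 and 0.11. Psmd5 went the other way on the Cd4Cre array, with signals of 13.37 and 13.09 there and 13.12 and 13.46 on the Foxp3Cre array, and ratios of -0.28 (error 0.21) and 0.34 (error 0.21). Under median centring Psmd5 read 0.14 and 0.88, so its sign on the Cd4Cre array turned.

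The activators differed among themselves. Psme1 and Psme2 together form the interferon-inducible ring that opens the core, and Psme3 and Psme4 form nuclear activators. Psme1 gave signals of 16.69 and 17.11, then 16.67 and 16.96, with ratios of 0.41 (error 0.21) and 0.30 (error 0.20). Psme2 gave 16.61 and 17.24, then 16.88 and 16.86, with ratios of 0.63 (error 0.21) and -0.02 (error 0.21). The second probe of Psme2 read 0.24 and -0.24. On the Foxp3Cre array the scanner software's own ratio was 0.02 for Psme1 and -0.33 for Psme2, while median centring gave 1.63 and 1.33, so the direction of Psme2 there was not settled.

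Psme3 was the lowest member on the Cd4Cre array. Its signals were 11.68 and 10.77 in the wild-type and deficient Cd4Cre pools and 11.61 and 11.09 in the Foxp3Cre pools. Both deficient pools lay below both wild-type pools, with ratios of -0.91 (error 0.23) and -0.52 (error 0.21), and it stayed below 0 under median centring at -0.83 and -0.30. Psme4 gave 14.89 and 14.09, then 14.79 and 14.23, with ratios of -0.79 (error 0.21) and -0.57 (error 0.21). Its 4 probes ranged from -0.79 to 0.68 on the Cd4Cre array and from -0.57 to 0.12 on the Foxp3Cre array, and under median centring its brightest probe read -0.07 and 0.24, so its direction was not settled. The inhibitor Psmf1 gave signals of 10.32 and 10.62 on the Cd4Cre array and 11.17 and 10.79 on the Foxp3Cre array, with ratios of 0.30 (error 0.21) and -0.38 (error 0.21). Its other probes read 0.18 and 0.21, then -0.37 and 0.32.

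Psmc3ip meets the naming rule but is no proteasome subunit: it is a partner of meiotic recombinases named for binding Psmc3. It had the highest ratio of the 42 genes on both arrays. Its signals were 9.54 and 11.25 in the Cd4Cre pools and 10.74 and 11.60 in the Foxp3Cre pools, with ratios of 1.72 (error 0.27) and 0.87 (error 0.22). Its second probe read 1.22 and 0.68. Without it the members' medians were 0.20 and 0.10.

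Set side by side, the arrays differed in sign for about the same share of members as of all genes. Of the 42 genes, 21 were above 0 on both, beside 30.2% of all genes detected on both arrays, 7 were below 0 on both, beside 37.9%, and 14 (33.3%) had opposite signs, beside 31.9%. At least 1.5-fold higher on both were 4 (Psmc3ip, Psmb2, Psmd10 and Psma8), beside 6.63%, and none was lower on both, beside 13.2%. Psma8 was detected through its deficient channel alone, and without it 3 were higher on both. The arrays were at least 1.5-fold apart for 13 members, beside 42.1% of all genes. The Cd4Cre ratio was at least 1.5-fold above the Foxp3Cre ratio in 11 of the 42 members, beside 26.9% of all genes, and above it by any amount in 28, beside 58.0%. The widest differences were those of Psmb5, Psmb10, Psmd3, Psmb6 and Psmc3ip.

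**Figure D4:**
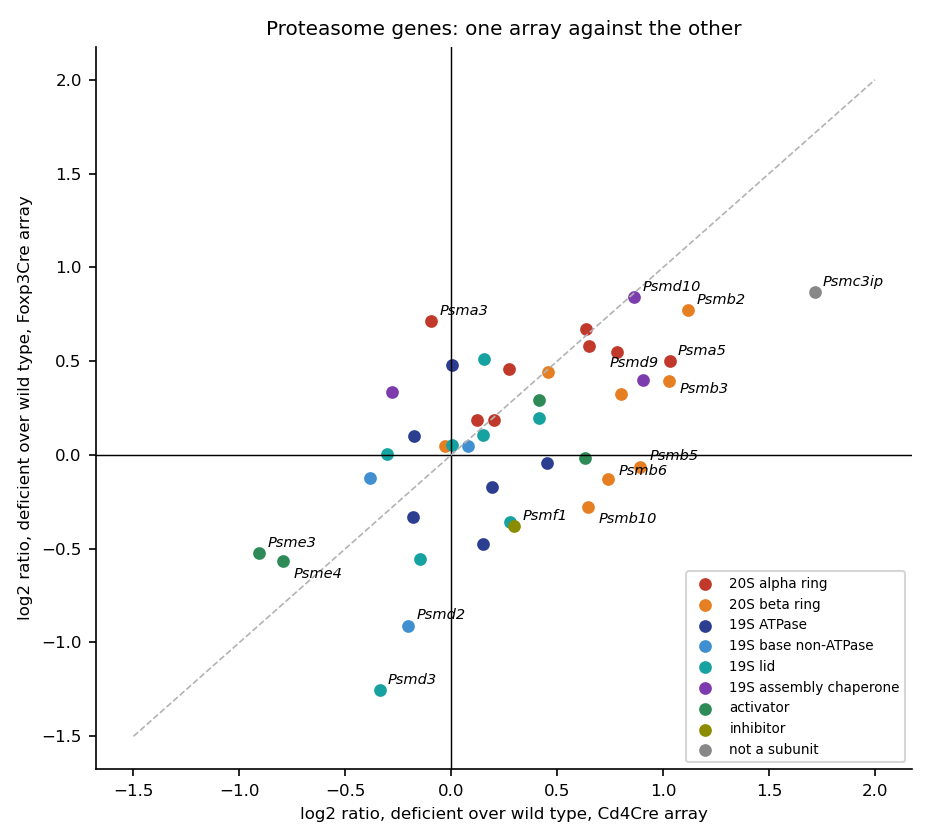
Each detected proteasome gene by its log2 ratio on the Cd4Cre array (horizontal) and on the Foxp3Cre array (vertical), coloured by role, with the dashed line marking equal ratios. Psmb5, Psmb6 and Psmb10 lie right of the vertical axis and just under the horizontal one. Psmd3 and Psmd2 lie lowest, and Psme3 and Psme4 lie at the lower left. Under median centring without loess Psmb5, Psmb6 and Psmb10 lie above the horizontal axis and Psmd3 and Psmd2 right of the vertical axis. With the GC trend removed after loess, Psmb5 and Psmb6 also lie above the horizontal axis.

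The mean of both arrays was tested with limma over the 14374 genes detected on both, a fit in which the difference between the Cre systems counts as spread and which has 1 residual degree of freedom per gene. No gene passed a Benjamini-Hochberg adjusted p of 0.05 (0.00% of all genes, lowest adjusted p 0.0954), and at an unadjusted p under 0.05 there were 3254 genes (22.6%), 3 of them among the 42 members (7.14%). Those were Psmc3ip (mean 1.29, SE 0.36, limma adjusted p 0.110), Psmb2 (mean 0.95, SE 0.33, limma adjusted p 0.154) and Psmd10 (mean 0.85, SE 0.33, limma adjusted p 0.180). Each was higher on both arrays. The lowest members by mean were Psmd3 at -0.80, Psme3 at -0.71 and Psme4 at -0.68, with limma adjusted p of 0.241, 0.249 and 0.263. Under median centring limma called 312 genes (2.17% of 14374), 5 of them members.

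**Figure D5:**
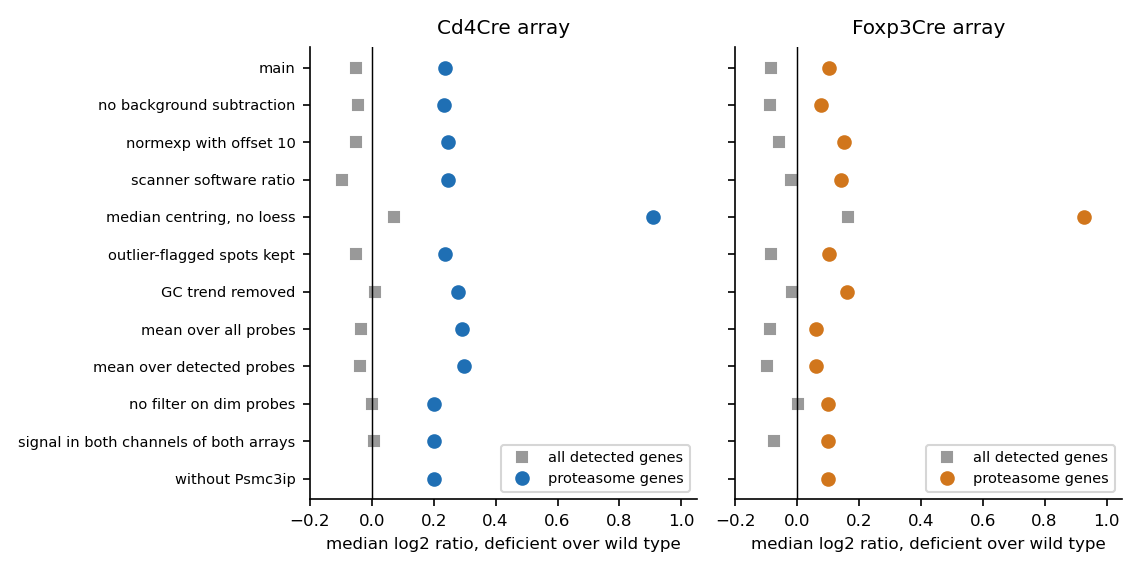
Median log2 ratio of the proteasome genes (circles) and of all detected genes (grey squares) on the Cd4Cre array (left) and the Foxp3Cre array (right), 1 line for each way of processing the same spots. The circles stay right of the squares throughout and move to 0.91 and 0.93 only where the loess step is replaced by median centring.

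Genes that work with the proteasome were read from a list of 34, of which 33 had a probe. Its medians were 0.33 on the Cd4Cre array, with 24 of 33 above 0, and 0.22 on the Foxp3Cre array, with 18 of 33. At 2-fold on the Cd4Cre array 5 were higher, beside 11.4% of all genes, and 4 lower, beside 10.6%. At 2-fold on the Foxp3Cre array 2 were higher, beside 2.94%, and 3 lower, beside 11.5%. The core assembly factors were above 0, as most core genes were. Pomp, which brings beta subunits onto the alpha ring, read 1.22 (error 0.23) and 0.53 (error 0.21), and Psmg3, an alpha ring chaperone, read 1.03 (error 0.23) and 0.22 (error 0.21). The small 19S subunit Sem1 read 1.14 (error 0.22) and 0.41 (error 0.20). These genes were above 0 on both arrays and under median centring as well.

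Uba1, the main enzyme that activates ubiquitin, read -1.39 (error 0.24) and -1.93 (error 0.27), and stayed at -1.04 and -1.65 under median centring. Factors that act on substrates before degradation were mixed. Usp14, a deubiquitinase on the base, read 0.60 (error 0.21) and 1.06 (error 0.23). Vcp, the ATPase that extracts substrates from complexes and membranes, read -1.20 (error 0.23) and -0.92 (error 0.22), and -0.23 and 0.11 under median centring. Zfand2a, a stress-induced proteasome partner, read -1.40 (error 0.24) and -0.70 (error 0.21). The protease Ddi2, which releases the proteasome regulator Nfe2l1 from its membrane anchor, read -0.29 on the Cd4Cre array and was at least 1.99-fold lower on the Foxp3Cre array, where its deficient signal was not well above background. Nfe2l1 itself read -0.23 (error 0.21) and -0.98 (error 0.22).

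Genes that take proteasome products to MHC class I lay mostly below 0 after loess. Of 12 listed, 11 had a probe, and their medians were -0.60 and -0.74, with 8 of 11 below 0 on each array, beside 52.8% and 54.6% of all genes. Under median centring those medians became 0.18 and 0.38. The peptide transporter gene Tap1 gave signals of 12.78 and 11.29, then 12.83 and 10.45, with ratios of -1.49 (error 0.25) and -2.38 (error 0.29), and of -1.30 and -2.11 under median centring. Its partner Tap2 read -0.59 (error 0.21) and -1.38 (error 0.23). The loading factor Tapbp read -0.60 and -1.34, and 0.57 and -0.22 under median centring.

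The interferon-responsive factor Irf1 read -1.24 (error 0.24) and -0.74 (error 0.22), and -0.09 and 0.38 under median centring. The chaperone gene Bag6 read -1.38 (error 0.24) and -0.95 (error 0.22), and stayed at -0.76 and -0.45. B2m, the light chain of MHC class I, read 0.16 (error 0.20) and 1.1 (error 0.22), and was above 0 under both scalings.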

How the data were processed

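RNA from sorted Treg pools was amplified and labelled by the Kreatech ULS method, per the labels' protocols, and hybridised to 2 arrays of 60-base probes. Per the file headers, Agilent Feature Extraction 10.5.1.1 (Cd4Cre) and 10.7.3.1 (Foxp3Cre) read the images; the submitters' processing notes name 10.5.1. The authors deposited spot intensity and background intensity per channel, a background-subtracted and dye-normalized log10 ratio (deficient over wild type), a p-value from a single-array error model, and flags. The deposited error of that ratio, a score made by the scanner software from 1 array, is given here on the log2 scale. The authors' deposited value table equalled that log10 ratio (largest difference 0, median 0 on each array), so it was not run as a separate alternative. The array with the Foxp3-GFP label was taken as the Cd4Cre array from the design text.

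Here, limma 3.58.1 under R 4.3.3 corrected the background by normexp (offset 50) and fitted loess to the log2 ratios of each array, control spots having weight 0. Outlier-flagged spots (137 and 155) were dropped and repeats of a probe averaged (245 repeated probes, median SD 0.06 and 0.07). Each gene is represented by its brightest probe. Signals are per channel after loess and Aquantile normalization. Where 1 channel was not above background, a ratio is a bound, set against the lowest signal above background or the channel's own where that was higher, and open to dye bias. Of 41174 probes, 24844 were named by accession, 6045 by symbol and 1810 by synonym through RefSeq (GRCm38.p6, names and promoters), and 8475 kept the file's name. Probe coordinates are the files' own.

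The limma fit had an intercept only, with Benjamini-Hochberg adjustment over all genes. Genes named in full are the catalytic subunits, activators, Psmf1, the 5 highest and lowest members of each array, the 5 with the largest difference between arrays, those past 2-fold and those whose probes differ by 1 or more; some neighbours were added after their values were seen. Some listed genes past 2-fold are counted but not reported here by name. The members and lists were chosen with earlier results of these data known. With 1 array per system, precision is limited by the number of arrays.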

Additional observations from a re-analysis of the deposited data

Results flagged for a closer look

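In 4 proteasome genes the ratios lay beyond the scanner error on opposite sides of 0 in the Cre systems. The difference between the systems was not tested in any of them, since each system has 1 array. The share of all genes meeting this rule was not computed. Opposite signs of any size were found in 33.3% of members and in 31.9% of all genes detected on both arrays. Psmb10, the inducible catalytic subunit, read 0.65 (Cd4Cre) and -0.28 (Foxp3Cre). The lid subunit Psmd13 read 0.28 and -0.36. The base chaperone Psmd5 read -0.28 and 0.34. The inhibitor Psmf1 read 0.30 and -0.38. The Cd4Cre ratio minus the Foxp3Cre ratio kept its sign under every setting tried, from 0.89 to 0.99 for Psmb10, from 0.47 to 0.64 for Psmd13, from -0.75 to -0.60 for Psmd5 and from 0.37 to 0.68 for Psmf1. Psmb10, Psmd13 and Psmd5 have 1 probe each, so settings that change only the choice or filtering of probes left their values unchanged. The opposite signs themselves held under median centring for Psmd13 (0.42 and -0.09) and Psmf1 (0.28 and -0.20), but both Foxp3Cre values were then within the scanner error. They did not hold for Psmb10 (1.86 and 0.94) or Psmd5 (0.14 and 0.88). With the GC trend removed Psmb10 read -0.09 on the Foxp3Cre array, also within the error. A dimmer probe of Psmf1 read 0.21 (error 0.38) and 0.32 (error 0.40), above 0 on both arrays. The mean over all Psmf1 probes was 0.23 and -0.14.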

How the results depend on the processing

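Replacing loess by median centring moved the results most. The members' median became 0.91 (Cd4Cre) and 0.93 (Foxp3Cre), against 0.07 and 0.16 over all genes. The number at least 1.5-fold in either direction became 32 and 31, that at least 2-fold 16 and 18, and limma's calls over all genes 312 (260 higher, 52 lower). It moved 73 of 84 member ratios by more than the scanner error, and the cause was not tested. Over the other settings together 39 member readings moved by more than that error and 715 did not. Part of the 715 was fixed in advance. Dropping the filter on dim probes (84 readings) or asking for signal in both channels (82 readings) cannot change a ratio. Averaging over probes cannot change the 24 genes with 1 probe. Averaging over detected probes gave a Cd4Cre median of 0.30. The Foxp3Cre median, 0.10, became 0.06 with the mean over all or over detected probes and 0.16 with the GC trend removed. The Foxp3Cre count at 2-fold was 2 with the scanner software's ratio, with the mean over all probes and with the mean over detected probes, against 1. Asking for signal in both channels of both arrays left 12441 genes, of which limma called 39 (7 higher, 32 lower) and none was a member. In the remaining settings limma called 0 genes, with 2690 to 4530 at an unadjusted p under 0.05; no other tool was run. Leaving out an array put the median of the members' mean ratio, 0.20 over both, at 0.10 (without the Cd4Cre array) or 0.24 (without the Foxp3Cre array), as values with no test. Leaving out Psmc3ip, chosen after seeing the data, kept every count within 1.5 times. No paired analysis was possible because each Cre system has 1 array, on which the deficient and wild-type pools are already set against each other. Signal over background limits Psmb11 and Psma8, and the number of arrays limits every member.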
